A study of Mus musculus with 4 samples.

Results

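The 10 genes Ghrh, Gal, Tac1, Tac2, Pdyn, Kiss1, Sst, Nts, Trh and Adcyap1, which encode neuropeptide precursors of the arcuate and premammillary hypothalamus, were read by symbol from the row names of the plate tables, where all 10 were found among 35963 genes. The cells were sorted from the hypothalamus of C57BL/6 mice carrying Lepr-cre and Rosa-LSL-tdTomato, 1 cell per well of a 384-well plate. The fasted group was 1 plate from animals without food for 24 h, and the fed group was 3 plates, numbered as in the labels. All 4 plates share the reporter, which stays on in any cell whose Lepr promoter was ever active, so a sorted cell need not hold Lepr transcripts. The number, sex and age of the animals behind each plate were not stated in the labels. The p-values therefore measure only the spread between these plates.

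Neuropeptides are cut from precursor proteins, stored in dense-core vesicles and released beside a fast transmitter such as GABA or glutamate. In the arcuate nucleus, Ghrh neurons drive growth hormone release, Sst restrains it, and the neurons that make kisspeptin (Kiss1), neurokinin B (Tac2) and dynorphin (Pdyn), called KNDy neurons, pace the release of gonadotropin-releasing hormone. In the ventral premammillary nucleus, glutamatergic neurons that make Adcyap1 (PACAP), Tac1 (substance P) or both relay leptin and social cues.

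For Ghrh with Gal and for the KNDy peptides, the 2 combinations described most closely here, the 250 bases before the transcription start that lies with the peptide gene are shown from RefSeq (GRCm38.p6), 5′ to 3′ on the gene's strand. Capitals mark matches, on either strand, to TGACG, the core of the cAMP response element, or to GGTCA, the core that nuclear receptors such as the oestrogen receptor read. They also mark CCAAT. The homeodomain core TAATTA was searched as well, and so was the element TATAAA that binds the basal machinery. They lie at chr2:157346656-157346905 on the minus strand for Ghrh, chr19:3414545-3414794 on the minus strand for Gal, chr10:127724228-127724477 on the plus strand for Tac2, chr1:133326962-133327211 on the plus strand for Kiss1 and chr2:129699939-129700188 on the minus strand for Pdyn.
Ghrh: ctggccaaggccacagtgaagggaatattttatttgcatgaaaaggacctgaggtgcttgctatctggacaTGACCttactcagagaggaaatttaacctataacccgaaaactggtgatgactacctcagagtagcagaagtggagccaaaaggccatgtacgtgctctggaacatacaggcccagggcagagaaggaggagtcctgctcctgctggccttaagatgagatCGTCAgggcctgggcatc
Gal: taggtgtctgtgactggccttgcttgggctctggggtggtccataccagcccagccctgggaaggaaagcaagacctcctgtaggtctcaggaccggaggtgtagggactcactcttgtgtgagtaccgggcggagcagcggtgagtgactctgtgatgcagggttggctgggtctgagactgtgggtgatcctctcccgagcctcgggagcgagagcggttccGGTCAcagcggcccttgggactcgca
Tac2: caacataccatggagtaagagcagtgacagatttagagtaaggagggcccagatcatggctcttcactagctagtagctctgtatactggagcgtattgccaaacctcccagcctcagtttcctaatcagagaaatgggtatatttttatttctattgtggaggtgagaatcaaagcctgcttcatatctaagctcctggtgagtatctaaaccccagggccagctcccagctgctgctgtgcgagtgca
Kiss1: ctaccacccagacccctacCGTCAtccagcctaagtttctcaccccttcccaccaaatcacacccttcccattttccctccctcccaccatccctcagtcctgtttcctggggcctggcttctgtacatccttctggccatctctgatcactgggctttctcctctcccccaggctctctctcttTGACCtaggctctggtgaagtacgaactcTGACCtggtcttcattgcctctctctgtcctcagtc
Pdyn: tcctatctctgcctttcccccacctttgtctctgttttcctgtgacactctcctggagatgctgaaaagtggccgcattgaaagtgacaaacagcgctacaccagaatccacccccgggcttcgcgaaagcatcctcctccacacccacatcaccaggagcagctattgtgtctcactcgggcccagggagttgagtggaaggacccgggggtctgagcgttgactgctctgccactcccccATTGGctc
GGTCA stood in the windows of Ghrh, Gal and, at 2 places, Kiss1, and in 35.2% of all 32851 promoter windows. TGACG stood in those of Ghrh and Kiss1, and in 17.8% of all. CCAAT stood in that of Pdyn alone among these 5, and in 33.8% of all. TATAAA (12.4% of all windows) and TAATTA (4.84%) matched none of the 5, and the Tac2 window held no match. A match is a description of letters and not a bound site. RefSeq lists another start for Ghrh and for Pdyn, whose windows are not shown.

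Each gene was placed on GRCm38 by GENCODE vM21. Ghrh spans chr2:157329497-157347506 and Gal chr19:3409915-3414544, both on the minus strand. Tac1 spans chr6:7554879-7565834 and Tac2 chr10:127724478-127731768, both on the plus strand. Pdyn spans chr2:129686565-129699844 and Sst chr16:23889573-23890958, both on the minus strand. Nts (chr10:102481756-102490486) and Trh (chr6:92242061-92244650) lie on the minus strand and Adcyap1 (chr17:93199017-93206537) on the plus strand. The row named Kiss1 carries the identifier ENSMUSG00000115958, which GENCODE vM21 calls Gm28040, at chr1:133309827-133329722 on the plus strand. That span overlaps Golt1a, so transcripts of Golt1a and Kiss1 may not be fully separated in this row.

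Of 1536 wells, 1279 were kept, 270 of them on the fasted plate, with plate totals of 4398233 to 5529965 transcripts. Neurons were 384 of them, 48 on the fasted plate against 124, 108 and 104 on fed plates 1, 2 and 3. Fasted neurons were deeper, with a median of 58636.5 transcripts against 25155.5, 27395.5 and 30504.5 on fed plates 1 to 3. Xist and no Y-linked transcript were seen in 43 of 48 fasted neurons, against 13 of 124, 69 of 108 and 44 of 104 on fed plates 1 to 3. Feeding state, depth, sex of the cells and plate therefore cannot be told apart. AgRP-like neurons, named from markers of arcuate cells with Agrp and Npy, were 197 of the 384, and the remaining 187 fell into 15 smaller clusters, N0 to N14. Neither the 10 peptides nor the transmitter genes were used to form these clusters. The wells of different plates share barcodes, and a well whose namesake on another plate held 20 or more transcripts of Tac2 averaged 2.29 Tac2 transcripts, against 0.247 in other wells.

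A neuron was counted as holding a peptide at 5 or more of its transcripts. In all, 169 of 384 neurons (44.0%) held at least 1 of the 10, and 50 (13.0%) held at least 2. Sst was held by 86 neurons (22.4%, 95% exact binomial interval 18.3 to 26.9), Gal by 29 (7.55%, 5.12 to 10.7) and Pdyn by 27 (7.03%, 4.68 to 10.1). Adcyap1 was held by 25 neurons (6.51%, 4.26 to 9.46), Trh by 22 (5.73%, 3.62 to 8.55) and Ghrh by 14 (3.65%, 2.01 to 6.04). Tac2 was held by 8 (2.08%, 0.904 to 4.06), Kiss1 and Nts by 7 each (1.82%, 0.736 to 3.72) and Tac1 by 6 (1.56%, 0.576 to 3.37). At the edge of the rule, 12 neurons stood at exactly 5 Sst transcripts and 16 at 4, and 3 stood at 5 Adcyap1 transcripts and 9 at 4. For Ghrh, Tac1, Kiss1 and Nts no neuron stood at 5, and 3, 2, 1 and 1 stood at 4.

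The transcripts of each gene were concentrated in few cells. The holders carried between 71.3% (Trh) and 92.9% (Sst) of a peptide's transcripts in neurons. The richest 3 neurons alone carried 79.96% of Tac1, 68.2% of Nts, 55.2% of Kiss1, 51.1% of Tac2 and 42.2% of Ghrh, against 20.1% of Pdyn and 20.8% of Trh.

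**Figure D1:**
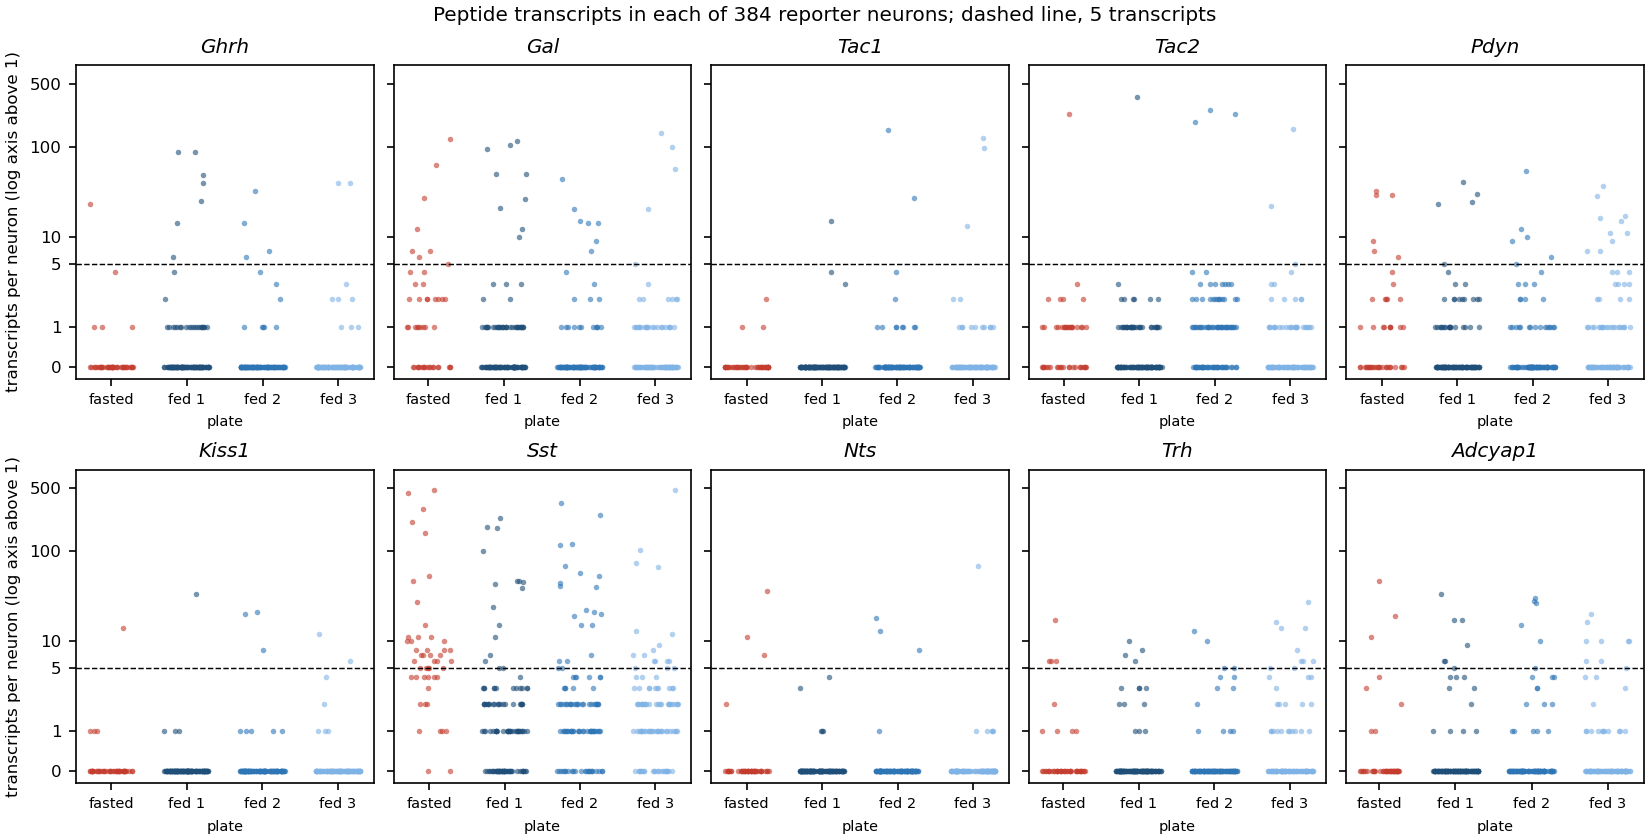
Each point is 1 of 384 reporter neurons, by plate (fasted, then fed 1 to 3), with its transcripts of the peptide on a y axis that is logarithmic above 1; the dashed line marks 5 transcripts. Most neurons sit at 0 to 4, and a few reach 359 (Tac2) or 479 (Sst).

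All 10 peptides were higher in neurons than in the other sorted cells of the same plates (tanycyte-like, glial, vascular and pars tuberalis-like cells). The log2 fold ran from 2.05 ± 0.58 (SE) for Nts to 4.27 ± 0.35 for Adcyap1 (edgeR quasi-likelihood test on sums per plate, plate as block, Benjamini-Hochberg adjusted p of 0.0167 for Nts and 3.14e-05 for Adcyap1, n = 4 plates). This is to be read against a background in which 27.1% of 16100 genes tested were higher in neurons. The call for Nts was lost without the fasted plate (adjusted p = 0.087), fed plate 2 (0.062) or fed plate 3 (0.086).

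Neurons were also deeper, with a median of 28474 transcripts against 6948 in other cells. With every cell thinned to 3000 transcripts, 9.52% of neurons had at least 1 Gal transcript against 3.30% of other cells, and 7.94% against 0.793% for Adcyap1. Tac2 (5.03% of neurons against 5.68% of other cells) and Sst (24.3% against 21.9%) did not stand above the other cells by this share, so a lone Tac2 or Sst transcript is read as background here.

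Ghrh, the releasing hormone for growth hormone, was held by 1 neuron of the fasted plate, with 23 transcripts. On fed plate 1, 7 neurons held 87, 86, 48, 39, 25, 14 and 6 transcripts. On fed plate 2, 4 neurons held 32, 14, 7 and 6, and on fed plate 3, 2 neurons held 39 each. All 10 neurons of cluster N7 held Ghrh, as did 3 of 9 in cluster N9 and 1 AgRP-like neuron. N7 was led by Ghrh, Gal, Slc18a3 (the vesicular acetylcholine transporter) and Th (tyrosine hydroxylase, the first enzyme of catecholamine synthesis), and it met 3 of 6 markers set for GHRH neurons (Gsx1, Th and Calcr). It was given no cell type name, since a name also required that no other set had more of its markers among the cluster's 10 leading genes, and the dopamine set had Th and Ddc there.

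Every Ghrh holder had a Th transcript, 13 of 14 had at least 5, and 22.4% of the remaining neurons had at least 1. Slc18a3 was seen in 13 of 14 holders against 9.46% of remaining neurons, and Chat, which makes acetylcholine, in 9 of 14 against 2.97%. The forebrain factors Dlx1 and Dlx2 were each seen in 12 of 14 against 18.9%, Gsx1 in 12 against 23.0%, and the oestrogen receptor gene Esr1 in 14 against 38.9%. The holders' median depth was 26125 transcripts, against 28583.5 in the remaining neurons. With 1 to 7 holders per plate, no model was fitted for Ghrh holders, and these shares are descriptions. On fed plate 1, over the neurons of that plate, Ghrh levels went most closely with those of Gal (r = 0.83), Foxp2 (0.79) and Scgn (0.78).

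Gal encodes galanin, an inhibitory peptide that many hypothalamic neurons add to a fast transmitter. It was held by 8 neurons on the fasted plate, with 5 to 121 transcripts. The fed plates had 9, 7 and 5 holders, with at most 116, 44 and 141 transcripts. Of the 29 holders, 9 lay in N7, 6 were AgRP-like, 4 lay in N3, and N9 and N0 had 3 each. Gal holders had more Slc18a3 than the remaining neurons, at 14.5, 215, 99.0 and 52.2 TMM-scaled CPM (counts scaled to a common library total) on the fasted plate and fed plates 1 to 3, against 4.70, 4.66, 7.27 and 2.83. The log2 fold was 3.99 ± 0.49 (edgeR quasi-likelihood test, plate as block, adjusted p = 0.000124).

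Dlx1 was higher by 3.20 ± 0.25 (adjusted p = 1.85e-09) and Dlx2 by 2.53 ± 0.32 (1.39e-05). Esr1 was higher by 1.82 ± 0.18 (1.57e-07), Gsx1 by 2.20 ± 0.31 (0.000124) and the progesterone receptor gene Pgr by 1.03 ± 0.17 (0.000341). In the list of regional transcription factors, 23 of 36 were tested, 5 were higher and 1, Tbx3, was lower (-1.34 ± 0.24). The median log2 fold of those tested was 0.57, against -0.03 over all 12679 genes tested, of which 1.43% were called. Of the 13 transmitter genes, 9 were tested and 3 were higher: Slc18a3, Chat (3.65 ± 0.83, adjusted p = 0.0152) and Gad2 (0.74 ± 0.14, 0.00971). Of the 21 receptor genes, 8 were tested and Sstr2, a somatostatin receptor, was higher (1.72 ± 0.43, 0.0318).

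The largest called fold was that of Crh, the corticotropin-releasing hormone, at 74.3, 0, 74.2 and 152 CPM in Gal holders against 0, 0, 0 and 0.708 CPM in the remaining neurons. Dsp (3.72 ± 0.87) and Lamp5 (3.29 ± 0.64) followed Slc18a3 among the 5 highest, and their adjusted p were 0.0197 and 0.0123. Among the other 9 peptides, Sst was lower in Gal holders (-2.42 ± 0.16, adjusted p = 8.80e-11), as was Adcyap1 (-2.70 ± 0.47, 0.000856). By the holding rule Sst was not rarer there, in 7 of 29 Gal holders (24.1%) against 22.4% of all neurons. The richest 3 neurons carried 26.2% of the Sst transcripts in neurons, and Adcyap1 was held by 25 of 384 neurons. The Gal holder sums rest on 8, 9, 7 and 5 neurons, a sampling of cells that these p-values do not measure. The lower Sst was not called against remaining neurons that were not AgRP-like (-1.58, 0.22). Ghrh stood at 57.8, 1500.1, 213 and 370 CPM in Gal holders against 0.940, 11.1, 10.9 and 4.25 CPM, without overlap, but its p adjusted over all genes was 0.0601. Without 1 plate, the calls of Chat, Gad2, Sstr2 and Lamp5 were lost for at least 2 choices of the plate left out (highest adjusted p of 0.16, 0.087, 0.26 and 0.14), and those of Slc18a3, Dlx1, Dlx2, Esr1, Gsx1 and Pgr for none. Slc18a3 and Gsx1 were not called without the plate block (0.076 and 0.14).

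Over all neurons of a plate, the gene most like Gal was Ghrh. Pearson's r of log2 (1 + transcripts per 10000) averaged 0.68 over the 4 plates and was at least 0.63 in each. Dlx1 and Th came next, with averages of 0.53 each. These are descriptions over neurons that share a library.

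Tac2, the precursor of neurokinin B, was held by 1 neuron of the fasted plate, with 231 transcripts. Fed plate 1 had 1 holder with 359, fed plate 2 had 3 with 256, 228 and 186, and fed plate 3 had 3 with 157, 22 and 5. The last of these sat in a well whose namesake on fed plate 2 held 256, so 7 holders remain without it. All 7 neurons of cluster N12 held Tac2, 6 held Kiss1 and 4 held Pdyn. N12 met 6 of 6 markers set for KNDy neurons (Tacr3, Esr1, Pgr, Nr5a2, Nhlh2 and Prlr). The neurokinin B receptor gene Tacr3 was seen in 8 of 8 Tac2 holders, against 4.52% of remaining neurons. Sox14, a transcription factor, was seen in 5 of 8 against 2.13%, Esr1 in 8 of 8 against 39.9%, and Oprk1, the dynorphin receptor, in 7 of 8 against 18.9%.

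Kiss1 was held by 1 neuron of the fasted plate, with 14 transcripts, no Tac2 and 27 Gal transcripts, outside N12. The fed plates had 1, 3 and 2 holders, with 33 on plate 1, 21, 20 and 8 on plate 2, and 12 and 6 on plate 3. All 6 of these fed neurons were N12 cells and held Tac2.

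Pdyn was held by more neurons than Tac2 and mostly outside N12. The fasted plate had 6 holders with 6 to 32 transcripts, and the fed plates had 5, 6 and 10, with at most 40, 54 and 36. Cluster N2, led by genes such as Glipr1, Fbn2, Sytl4 and Npy1r, had 10 of the 27 holders. The POMC-like cluster N6 had 4 and N12 had 4. In 10 of 27 Pdyn holders at least 5 transcripts of Pomc, the precursor of melanocortins, were present. In the fit against the remaining neurons, the 4 arcuate peptides Agrp, Npy, Pomc and Cartpt were tested and none was called.

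The steroid receptor genes Esr1 and Pgr were higher in Pdyn holders, the Esr1 call being lost without called doublets and the deepest neurons (adjusted p = 0.31). Esr1 stood at 251, 509, 534 and 261 CPM on the fasted plate and fed plates 1 to 3, against 60.9, 58.7, 60.2 and 64.9 CPM in the remaining neurons (log2 fold 2.57 ± 0.19, edgeR, adjusted p = 6.45e-09). Pgr stood at 334, 559, 443 and 318 CPM against 87.7, 68.2, 96.4 and 88.9 CPM (2.24 ± 0.17, 5.93e-11). The groups did not overlap for either gene, and 2.63% of 12562 genes tested were called and 1.28% were lower. Of 36 regional factors, 25 were tested, 7 were higher and 4 lower, with a median of -0.37 against -0.02 over all genes. Prdm12, which marks developing Pomc neurons, was higher (4.82 ± 0.91, adjusted p = 0.00066), with all of its holders' signal on fed plates 1 and 2. Sox14 (3.50 ± 0.81, 0.00679), Nkx2-1 (1.76 ± 0.30, 0.000157), Nr5a2 (1.27 ± 0.24, 0.000837) and Tbx3 (0.70 ± 0.16, 0.00721) were also higher. Dlx1 (-3.00 ± 0.55), Foxp2 (-2.50 ± 0.50), Gsx1 (-1.91 ± 0.51) and Nfib (-1.41 ± 0.36) were lower.

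The 5 highest called folds were those of Prdm12, Rxfp1, the relaxin receptor (4.36 ± 0.53, adjusted p = 1.38e-07), Rab37 (4.30 ± 0.81), Inhbb, an inhibin and activin subunit (3.52 ± 0.70), and Ror2 (3.37 ± 0.55). Of the 13 transmitter genes, 8 were tested and 2 were lower, Slc32a1, the vesicular GABA transporter (-1.75 ± 0.21, 1.13e-07), and Gad2 (-0.53 ± 0.14, 0.0265). Of the other 9 peptides, Ghrh (-3.65 ± 0.58, 3.57e-05), Gal (-1.72 ± 0.32), Tac1 (-3.33 ± 0.72) and Adcyap1 (-3.42 ± 0.71) were lower. The Pdyn holder sums rest on 6, 5, 6 and 10 neurons, and Ghrh and Tac1 were held by only 14 and 6 of 384 neurons. How often so few cells miss such rare holders is not measured by these p-values. Tac2 (4.48 ± 1.92, adjusted p = 0.601) and Kiss1 (3.99 ± 1.73, 0.607) were not called. Nkx2-1 and Gad2 lost their calls against remaining neurons that were not AgRP-like (0.46 and 0.35). Leaving out 1 plate kept the calls of Esr1, Pgr, Nkx2-1, Nr5a2, Rxfp1, Rab37, Ror2, Dlx1, Slc32a1 and Ghrh, and lost those of Tac1, Adcyap1, Gad2, Gal, Tbx3, Sox14, Gsx1, Nfib, Foxp2 and Inhbb for at least 1 plate. Prdm12 was not tested without fed plate 1 or fed plate 2, nor without the plate block.

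Pdyn levels over neurons followed those of Tmem35a, Rxfp1 and Prlr most closely, with r averaging 0.54, 0.54 and 0.51 over the 4 plates.

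Tac1, the substance P precursor, was held by none of 48 fasted neurons, which allows a share of up to 6.25%. On the fed plates 6 neurons held it, with 15 transcripts on plate 1, 154 and 27 on plate 2, and 124, 97 and 13 on plate 3. The 3 richest, with 154, 124 and 97, were all glutamatergic and all lay in cluster N10. Each of these 3 also held Adcyap1, with 28, 10 and 10 transcripts. N10 met 4 of 6 markers set for the ventral premammillary nucleus (Nos1, Slc6a3, Calb2 and Slc17a6), and not Dlk1 or Foxb1. Slc17a6, the vesicular glutamate transporter of the hypothalamus, was seen in 5 of 6 Tac1 holders against 24.6% of remaining neurons. The dopamine transporter gene Slc6a3 was seen in 3 of 6 against 2.65%. Both genes are also among the markers that named N10, where 3 of the 6 holders lay.

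Adcyap1, the PACAP precursor, was held by 3 fasted neurons, with 46, 19 and 11 transcripts. The fed plates had 7, 6 and 9 holders, with at most 33, 30 and 20. AgRP-like neurons made up 14 of the 25, N10 had 4 and N11 had 3. The 14 AgRP-like holders all had at least 5 Agrp transcripts, and they spread over all 4 plates (2 fasted, and 5, 3 and 4 on fed plates 1 to 3).

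Adcyap1 holders could be fitted on the 3 fed plates. There, 0.383% of 12531 genes were called. Plxdc2 (1.85 ± 0.24, edgeR, adjusted p = 6.70e-05), Adamts2 (2.50 ± 0.40, 0.000911), Nrn1 (2.21 ± 0.38, 0.00208) and Irx5 (3.24 ± 0.75, 0.0498) were among the highest. Of the other 9 peptides, 5 were lower: Sst (-2.77 ± 0.20, 4.97e-10), Gal (-4.18 ± 0.42, 5.36e-07), Tac2 (-2.19 ± 0.27, 2.24e-05), Pdyn (-2.54 ± 0.43, 0.00157) and Ghrh (-2.73 ± 0.51, 0.00547). The holder sums rest on 7, 6 and 9 neurons, and Tac2 and Ghrh were held by only 8 and 14 of 384 neurons. These p-values do not measure how often so few cells miss such rare holders. The arcuate peptides Pomc (-4.06 ± 0.31, 2.10e-09) and Cartpt (-1.13 ± 0.15, 0.000144) were lower as well, as were Th (-2.64 ± 0.50), Esr1 (-1.81 ± 0.37) and Nfib (-1.84 ± 0.38). Dlx1 had no transcript in holders on any fed plate and 31.3, 13.3 and 34.9 CPM in the remaining neurons. Tac1 stood at 0, 606 and 727 CPM in holders against 7.82, 14.7 and 9.45 CPM in the remaining neurons, and was not called (5.09 ± 1.31, 0.777). Without the plate block only 3 genes were called in all, Sst and Pomc among them, and Irx5 was not tested. The lower Sst was not called against remaining neurons that were not AgRP-like (-1.45, adjusted p = 0.80). Without 1 plate, the calls of Ghrh, Th, Esr1, Nfib, Adamts2 and Dlx1 were lost for at least 1 choice of plate. Over neurons, Adcyap1 levels went most closely with those of Bdnf, a neurotrophin (r averaging 0.41 over the 3 fed plates).

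Sst, the precursor of somatostatin, was the peptide held most often. On the fasted plate 32 of 48 neurons held it (66.7%, interval 51.6 to 79.6), against 16, 21 and 17 neurons on fed plates 1, 2 and 3 (12.9, 19.4 and 16.3%). Holders ran from 5 to 479 transcripts with a median of 11. The 2 richest, with 479 on fed plate 3 and 474 on the fasted plate, lay in cluster N3, and the 13 others with 100 or more were all AgRP-like.

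At equal depth the shares lay closer together. Thinned to 10000 transcripts, 13.0% of fasted neurons held Sst, against 9.32, 13.9 and 5.32% on the fed plates, with 2 fasted neurons and 6, 7 and 10 fed neurons too shallow to thin. The median depth of the holders was 36702 transcripts, against 26166 in the remaining neurons. Among other cells, 11 of 895 held Sst, with up to 185 transcripts. Their summed Sst level was 136 CPM of plain totals on the fasted plate and 46.1, 81.1 and 198 CPM on fed plates 1 to 3. On fed plate 3, 185 of the 329 Sst transcripts in other cells came from 1 cell of an unnamed cluster. Fasted neurons had a median of 58636.5 transcripts, against 8779 in other cells of that plate. At that depth the rule of 5 transcripts does not separate fasted holders of few transcripts from the level in other cells. How many fasted holders lie at that level was not tested. Another 9 Sst holders sat in wells whose namesake on another plate held more Sst, with at least 20 transcripts, and without these 77 of 384 neurons (20.1%) held it.

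Between Sst holders and the remaining neurons 20 of 12709 genes were called (0.157%, with 0.0157% higher), and 964 had an unadjusted p under 0.05. The count depended on the choice of cells, at 343 against remaining neurons that were not AgRP-like and 148 for holders of 10 or more transcripts. Crhr1, a receptor of corticotropin-releasing hormone, stood at 15.3, 27.4, 23.1 and 16.5 CPM on the fasted plate and fed plates 1 to 3, against 2.03, 8.80, 6.91 and 3.27 CPM (log2 fold 1.94 ± 0.37, edgeR, adjusted p = 0.0452). Lrp11 was higher by 0.66 ± 0.12 (0.041) and Esr1 lower by 1.35 ± 0.22 on the log2 scale (-1.35, 0.0357). None of the other 9 peptides was called, with adjusted p from 0.0552 (Tac1, -2.59) to 0.957 (Nts). These 3 calls were lost without fed plate 1, without fed plate 2 and without the plate block. In all, 0 genes were called without fed plate 2 by edgeR (661 at an unadjusted p under 0.05), and DESeq2 on all plates called 30. No gene reached an average r of 0.4 with Sst over neurons.

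Nts, the neurotensin precursor, was held by 3 fasted neurons, with 36, 11 and 7 transcripts. No neuron of fed plate 1 held it, 3 of fed plate 2 did with 18, 13 and 8, and 1 of fed plate 3 did with 68. Of the 7, 4 lay in N3, which was led by Crh, Sst and Nts. Gal transcripts were seen in 5 of 7 Nts holders against 33.4% of remaining neurons, and Dlx1 in 5 of 7 against 20.4%.

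Trh, the thyrotropin-releasing hormone precursor, was held at low counts, from 5 to 27. The fasted plate had 4 holders with 17, 6, 6 and 6 transcripts. The fed plates had 4, 4 and 10 holders, with at most 10, 13 and 27. N0 had 6 of the 22, and N1, N9 and N11 had 3 each. Th was seen in 16 of 22 Trh holders against 22.4% of remaining neurons, and at 5 or more transcripts in 11. A transcript of Cartpt was present in all 22 and in 90.1% of remaining neurons.

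**Figure D2:**
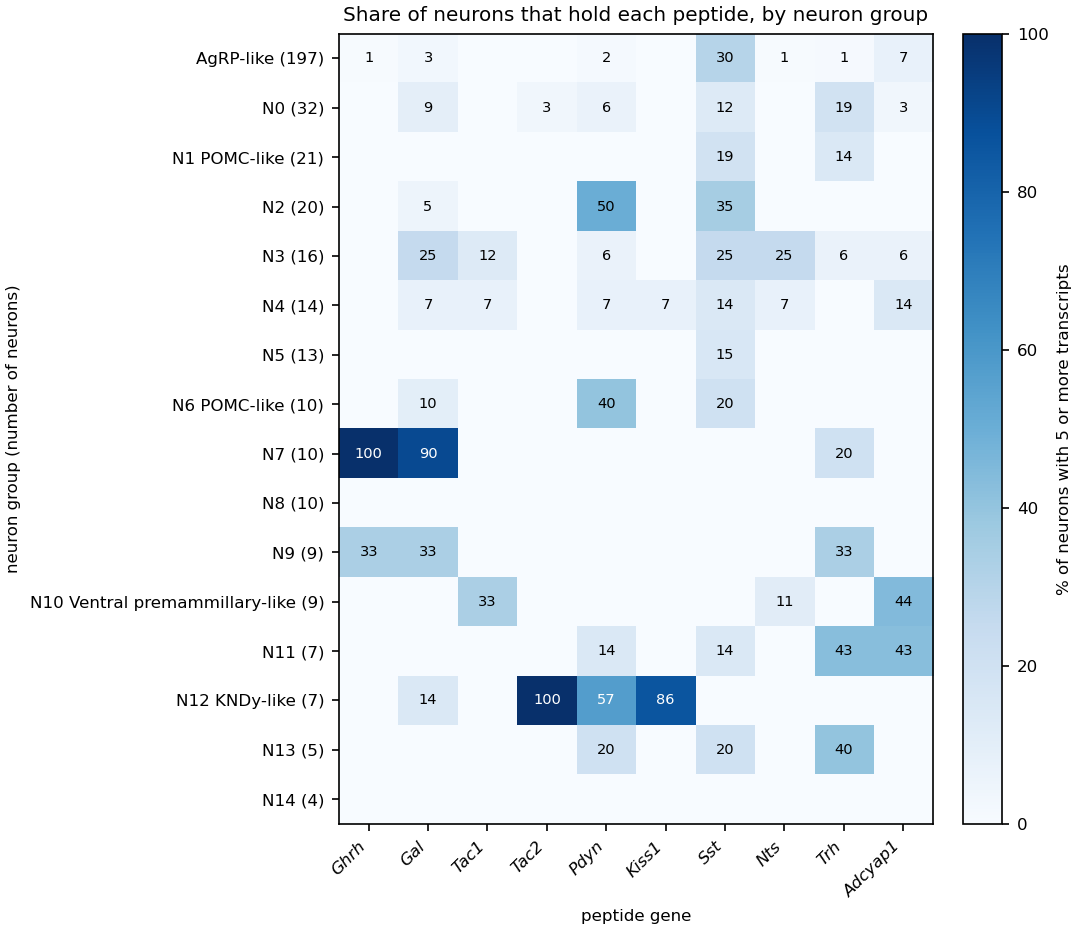
Rows are groups of neurons with their number, columns the 10 peptides, and the colour and printed figure give the percent of neurons with 5 or more transcripts. N7 holds Ghrh and Gal, N12 holds Tac2, Kiss1 and Pdyn, N10 holds Adcyap1 and Tac1, and Sst is spread over most groups.

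The share of neurons with at least 1 transcript of Lepr itself differed between plates. On the fasted plate 30 of 32 Sst holders had one, against 7 of 16 remaining neurons. On fed plates 1, 2 and 3 it was seen in 7 of 16, 14 of 21 and 7 of 17 Sst holders, against 41 of 108, 37 of 87 and 51 of 87 remaining neurons, so the direction was not the same on every plate. Gal holders had it in 5 of 8 neurons on the fasted plate and in 1 of 9, 0 of 7 and 3 of 5 on the fed plates, against 32 of 40, 47 of 115, 51 of 101 and 55 of 99 remaining neurons. Pooled over plates, it was seen in 3 of 14 Ghrh holders, 2 of 8 Tac2 holders and 1 of 7 Kiss1 holders. The neurons remaining beside each had it in 51.6, 51.1 and 51.2%. By plate, 1 of 1 fasted Ghrh holder had it, and 1 of 7, 0 of 4 and 1 of 2 fed ones. The neurons without Ghrh stood at 36 of 47 fasted, and 47 of 117, 51 of 104 and 57 of 102 fed. Kiss1, Tac2 and Ghrh holders were shallower than the remaining neurons (medians of 20246, 21860.5 and 26125 transcripts), and Sst holders were deeper. In the fits, Lepr was called in none of the 4 holder comparisons. Between feeding states it was higher in fasted AgRP-like neurons, at 202 CPM against 28.4, 36.7 and 43.8 CPM on the fed plates (log2 fold 2.51 ± 0.22, edgeR, adjusted p = 1.65e-07).

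Of 45 possible pairs, 25 were seen in at least 1 neuron, 14 of them on at least 2 plates, and 20 were seen in none. The most frequent was Ghrh with Gal, in 11 neurons, which is 78.6% of Ghrh holders and 37.9% of Gal holders. It occurred on all 4 plates, in 1 fasted neuron and in 6, 2 and 2 neurons of fed plates 1 to 3. The fasted neuron held 23 Ghrh and 62 Gal transcripts. The richest Ghrh neurons of fed plate 1 held 87 and 86 Ghrh transcripts beside 50 and 103 of Gal, and the 2 of fed plate 3 held 39 each beside 141 and 56. None of the 11 was called a doublet or was among the deepest neurons of its plate.

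Tac2 and Kiss1 shared 6 neurons, all fed, which is 75.0% of Tac2 holders and 85.7% of Kiss1 holders. The neuron of fed plate 1 held 359 Tac2, 33 Kiss1 and 23 Pdyn transcripts. Of the 3 on fed plate 2, those with 256 and 186 Tac2 transcripts held 21 and 20 of Kiss1 and 12 and 10 of Pdyn, and the one with 228 held 8 of Kiss1 and 3 of Pdyn. The 2 on fed plate 3 held 12 and 6 of Kiss1 and 4 of Pdyn each. The fasted N12 neuron held 231 Tac2, 29 Pdyn and 1 Kiss1 transcripts. Tac2 and Pdyn thus shared 4 neurons (50.0% of Tac2 and 14.8% of Pdyn holders), and all 3 peptides were held together by 3. Every Tac2 holder had at least 1 Pdyn transcript, against 32.8% of all neurons. The holder with 5 Tac2 transcripts, in a well with a richer namesake, had 1.

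Tac1 and Adcyap1 shared 3 glutamatergic neurons, which is 50.0% of Tac1 holders and 12.0% of Adcyap1 holders. Gal and Sst shared 7 neurons, 5 of them fasted and 2 of fed plate 3, with a median depth of 71335 transcripts. Pdyn and Sst shared 6, of which 4 were fasted (median depth 75990). These last pairs were seen at depths above the overall median of 28474 transcripts. Sst was held by 24.1% of Gal holders and 22.2% of Pdyn holders, near its share of 22.4% in all neurons. Gal with Nts, Gal with Trh, Sst with Trh and Sst with Adcyap1 shared 4 neurons each.

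Of the holders, 12 of 14 for Ghrh, 23 of 29 for Gal, 7 of 8 for Tac2 and 7 of 7 for Kiss1 held another of the 10 peptides. The same was true of 6 of 7 for Nts, 4 of 6 for Tac1, 13 of 27 for Pdyn, 11 of 22 for Trh, 9 of 25 for Adcyap1 and 20 of 86 for Sst.

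At 2 or more peptides, 31.2% of fasted neurons counted against 6.45, 13.0 and 12.5% on fed plates 1 to 3. Thinned to 10000 transcripts, the values were 4.35% against 6.78, 2.97 and 5.32%. Ghrh with Gal and Tac2 with Kiss1 remained in 9 and 4 of the thinned neurons. Without fed plate 1, 5 neurons held Ghrh and Gal.

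**Figure D3:**
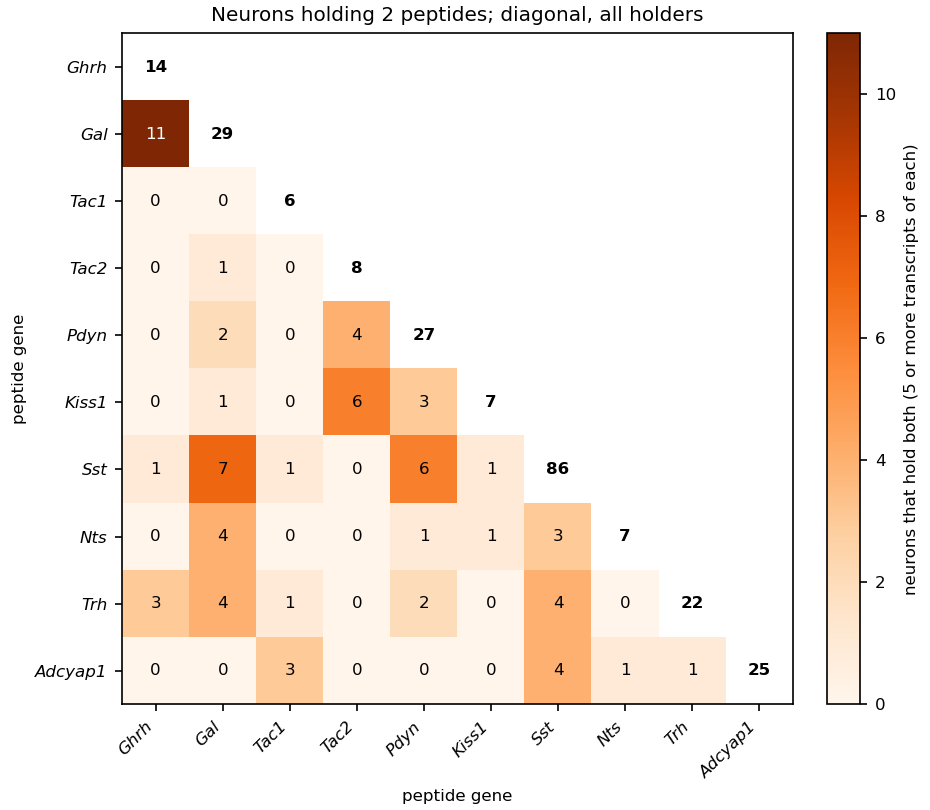
Each cell gives the number of neurons that hold both peptides (5 or more transcripts of each), and the bold diagonal gives all holders of a peptide. Ghrh with Gal (11), Gal with Sst (7), Tac2 with Kiss1 (6) and Pdyn with Sst (6) have the highest counts. Both pairs with Sst lie near the share of Sst holders in all neurons.

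Most peptide neurons were GABAergic, and those with Tac1, Tac2 or Kiss1 were mostly glutamatergic. A neuron was typed from 3 or more transcripts of Slc32a1, Gad1 and Gad2 or of Slc17a6, Slc17a7 and Slc17a8, with at least 80% of 1 kind. This gave 316 GABAergic, 30 glutamatergic, 26 mixed and 12 untyped neurons. All 14 Ghrh holders, 28 of 29 Gal holders and 81 of 86 Sst holders were GABAergic. Of the Trh holders, 17 of 22 were GABAergic, and of the Nts holders 5 of 7.

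Glutamatergic neurons made up 5 of 8 Tac2 holders, 5 of 7 Kiss1 holders and 4 of 6 Tac1 holders. For Adcyap1, 15 holders were GABAergic, 5 glutamatergic and 5 mixed, and for Pdyn 14, 6 and 7. All 6 neurons with Tac2 and Kiss1 were glutamatergic (5) or mixed (1), and all 11 with Ghrh and Gal were GABAergic.

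**Figure D4:**
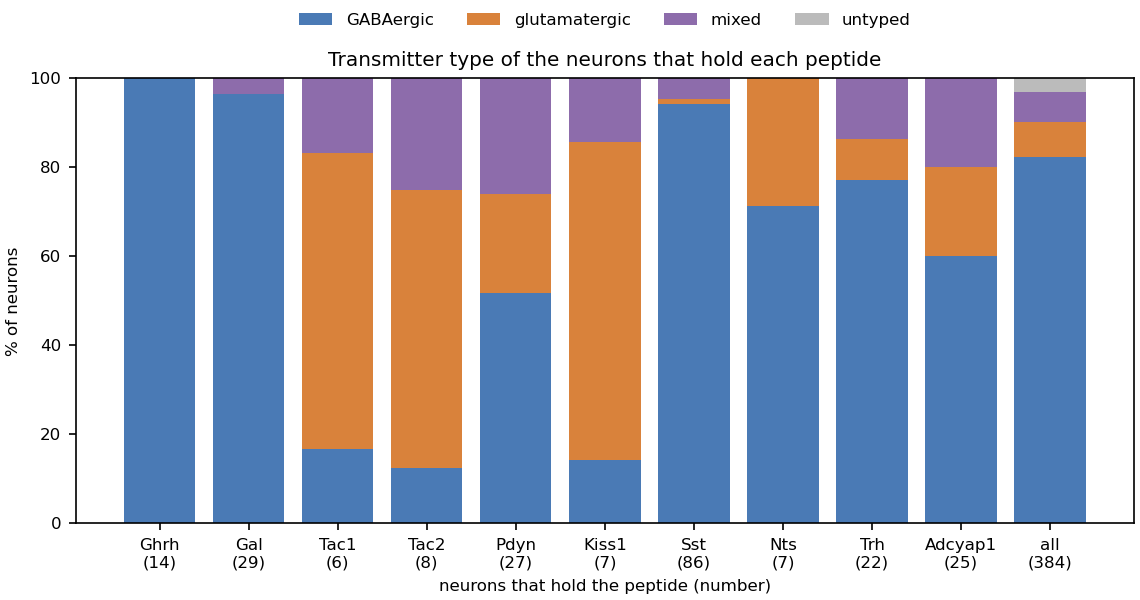
Bars give the percent of holders of each peptide (number in brackets), and of all 384 neurons at the right, that were GABAergic, glutamatergic, mixed or untyped. Ghrh stands at 100% GABAergic, and Tac1, Tac2 and Kiss1 are mostly glutamatergic.

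Sums of GABAergic and glutamatergic neurons were compared on the 3 fed plates, since the fasted plate had no glutamatergic neuron. The glutamatergic sums rest on 2, 12 and 16 neurons of plates 1 to 3, against 114, 86 and 74 GABAergic ones. A sum does not tell more holders from more transcripts per holder. Sst stood at 393, 580 and 393 CPM in GABAergic neurons against 31.6, 38.1 and 61.1 CPM in glutamatergic ones (log2 fold 3.28 ± 0.29, edgeR, adjusted p = 3.61e-27). Gal was higher in GABAergic neurons by 3.46 ± 0.42 (7.12e-14), at 189, 60.2 and 156 CPM against 47.4, 8.79 and 4.89 CPM. Ghrh was higher by 3.43 ± 0.64 (5.28e-06).

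Tac1 stood at 2.53, 2.99 and 9.85 CPM in GABAergic neurons against 237, 460 and 550 CPM in glutamatergic ones (-6.38 ± 0.31, 6.71e-91). Kiss1 (-7.02 ± 0.52), Pdyn (-1.96 ± 0.28) and Adcyap1 (-2.11 ± 0.33) were also lower in GABAergic neurons. Thus 3 of the 10 peptides were higher and 4 lower, where 3.13% and 3.92% of 12208 genes were (7.04% in all). Tac1 and Kiss1 passed the filter on low counts through the glutamatergic sums, and Ghrh through the GABAergic sums. For these 3 genes a call could only go that way, so their calls add nothing to the count. The 30 glutamatergic neurons had 397 Tac1 and 89 Kiss1 transcripts in all, with 4 holders of Tac1 and 5 of Kiss1. The p-values do not measure the sampling of so few cells. Tac2 stood at 15.5, 31.2 and 17.9 CPM against 5668, 1992 and 63.6 CPM, without overlap, and was not called by edgeR (-5.82 ± 2.25, adjusted p = 0.522), while DESeq2 gave 0.0036. Nts (-1.83 ± 2.37) and Trh (-0.08 ± 0.47) were not called.

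Among receptors, Tacr3 (-4.81 ± 0.69, adjusted p = 3.84e-10), Trhr, the receptor of Trh (-4.81 ± 0.69, 4.89e-10), Oprk1 (-1.98 ± 0.53, 0.00487) and Ntsr1, a neurotensin receptor (-2.84 ± 0.94, 0.0388) were lower in GABAergic neurons, and none of the 9 tested was higher. Lepr was higher in them by 1.53 on the log2 scale. The calls of Ghrh (adjusted p = 0.054) and Adcyap1 (0.13) were lost without fed plate 1, where the glutamatergic sum is 2 neurons, and that of Adcyap1 without fed plate 2 (-1.09, 0.73). Kiss1 was not called when typing used Slc32a1 and Slc17a6 alone (-4.51, 0.23). Without the plate block the calls of Ghrh (0.25), Gal (0.087) and Kiss1 (0.11) were lost.

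AgRP-like neurons held mainly Sst and Adcyap1. Of 197, 59 held Sst and 14 held Adcyap1, against 27 and 11 of 187 other neurons. No AgRP-like neuron held Tac1, Tac2 or Kiss1. Of the 197, 181 had 5 or more Agrp transcripts, and these included 58 of the 59 Sst holders and all 14 Adcyap1 holders, but 2 of the 6 Gal holders, neither of the 2 Trh holders and not the Ghrh holder.

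Against other neurons of the same plates, Tac2 stood at 10.4, 18.5, 32.4 and 10.1 CPM in AgRP-like neurons on the fasted plate and fed plates 1 to 3, against 245, 379, 534 and 105 CPM (-4.17 ± 0.15, edgeR, adjusted p = 3.18e-11). Tac1 (-5.05 ± 0.57, 0.00058), Kiss1 (-4.06 ± 0.52, 7.13e-05), Nts (-3.46 ± 0.40, 1.56e-05) and Pdyn (-2.98 ± 0.47, 0.0132) were lower too. That is 5 of 10 lower and 0 higher, where 8.27% of 12848 genes were lower and 6.47% higher. Tac1, Kiss1 and Nts had only 11, 9 and 16 transcripts in all AgRP-like neurons. Tac1, Kiss1 and Nts passed the filter on low counts through the other neurons, where 6, 7 and 6 cells held them. For these 3 genes a call could only be lower, so their calls add nothing to the count. Sst stood at 831, 456, 807 and 245 CPM against 567, 157, 48.9 and 336 CPM, which overlap (1.25 ± 0.92, 0.53). Adcyap1 stood at 39.8, 27.2, 29.4 and 39.5 CPM against 22.1, 63.2, 71.5 and 37.9 CPM (-0.49 ± 0.36, 0.468).

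Gal (-2.85, adjusted p = 0.0999), Ghrh (-3.48, 0.314) and Trh (-2.67, 0.0883) were not called. With AgRP-like neurons limited to those with 5 or more Agrp transcripts, an alternative chosen after seeing the data, these 3 were called lower (Gal -3.86, 0.00141; Ghrh -5.39, 1.64e-06; Trh -4.68, 2.95e-08). That limit keeps 2 of the 6 Gal holders, and it leaves out the Ghrh holder and both Trh holders. Ghrh and Trh then passed the filter on low counts through the other neurons. A call of either could only be lower, so these 2 calls add nothing. Pdyn was not called without the fasted plate (0.064).

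Between feeding states, no peptide was called over all neurons, where 25 of 14936 genes (0.167%, with 0.0268% lower) were called and 1798 had an unadjusted p under 0.05. Sst was highest on the fasted plate, at 720 CPM against 361, 462 and 302 CPM on the fed plates (log2 fold 0.94 ± 0.25, edgeR, adjusted p = 0.234). It was called without fed plate 1 (0.91, 0.0046) and without the filter on low counts (0.92, 0.012). Ghrh stood at 11.2 CPM on the fasted plate against 110, 24.4 and 29.1 CPM (-2.27 ± 1.42, 0.613), and Tac1 at 1.497 CPM against 7.29, 65.2 and 80.3 CPM (-5.05 ± 2.58, 0.569). The fasted plate lay below all 3 fed plates for both, and the fasted sum rests on 48 neurons. Gal (107 CPM against 175, 49.1 and 116 CPM) and Pdyn (51.6 CPM against 55.4, 44.1 and 67.7 CPM) lay within the fed range.

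In AgRP-like neurons, Gal was higher on the fasted plate, at 68.6 CPM against 24.996, 16.3 and 10.96 CPM (1.90 ± 0.32, adjusted p = 0.000886), where 4.23% of 13159 genes were called, with 2.73% higher and 1.5% lower. Of the 115 Gal transcripts in fasted AgRP-like neurons, 62 came from 1 neuron that had 1 Agrp transcript and also held Ghrh and Trh. Among AgRP-like neurons with 5 or more Agrp transcripts, Gal was not called (1.20, adjusted p = 0.0985), with 41 Gal transcripts on the fasted plate. Sst stood at 811 CPM against 451, 794 and 241 CPM (0.70 ± 0.84, 0.751). By holders, 22 of 27 fasted AgRP-like neurons held Sst against 12 of 81, 20 of 58 and 5 of 31 fed ones. Fasted AgRP-like neurons had a median of 64950 transcripts, and the share at equal depth is given above for all neurons. Their median Sst count was 8, against 1, 2 and 2 in the fed ones, and other cells of the fasted plate carried Sst at 136 CPM of plain totals. Tac1 and Kiss1 passed no filter in these cells.

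In the other neurons 0.145% of 12399 genes were called (0.0968% higher and 0.0484% lower), and no peptide was among them. With 1 fasted plate the fit takes its spread from the fed plates.

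**Figure D5:**
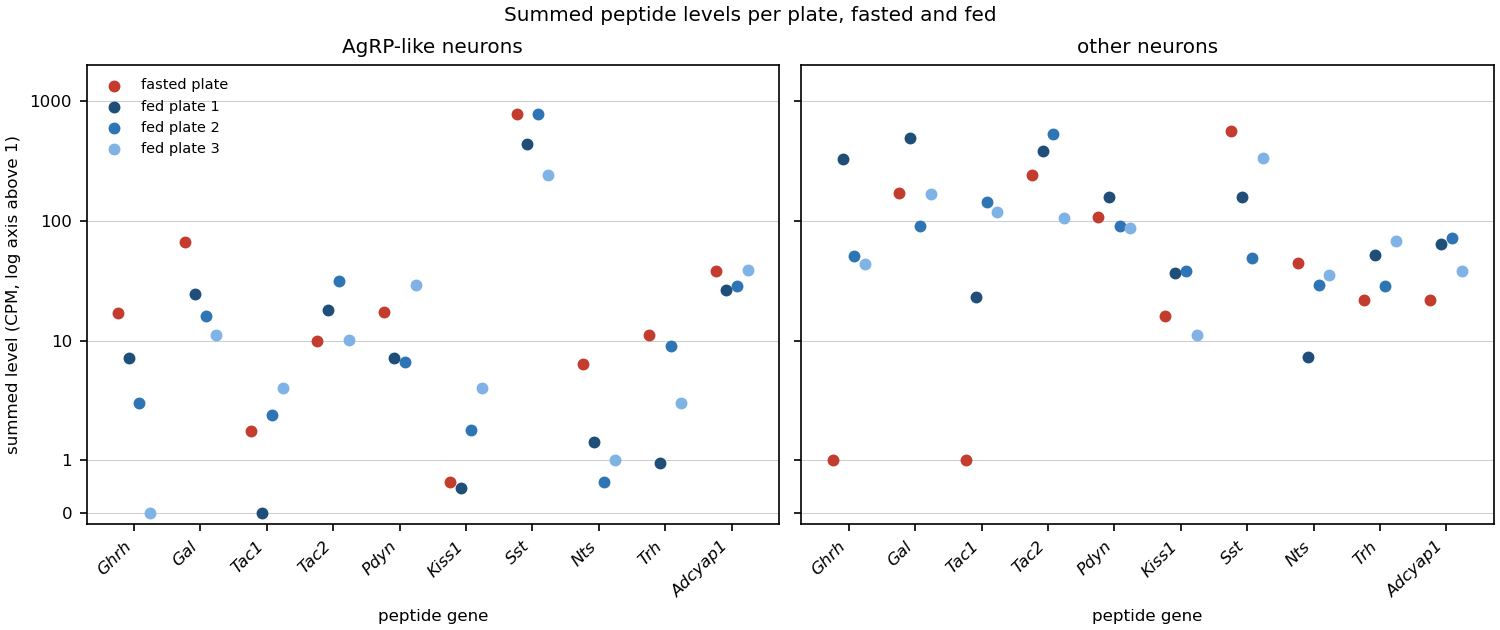
Points are summed levels per plate in CPM of plain totals (y axis logarithmic above 1), the fasted plate in red left of fed plates 1 to 3 in blue, for AgRP-like neurons (left) and other neurons (right). Gal in AgRP-like neurons is highest on the fasted plate, and Ghrh and Tac1 in other neurons are lowest there.

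Fed plates 2 and 3 held at least 22 neurons of each kind, and within these plates Xist-only neurons (no Y-linked transcript) were compared with Y-only neurons (no Xist transcript) (69 and 44 neurons against 22 and 28). Tac2 stood at 388 and 146 CPM in Xist-only neurons against 31.5 and 14.9 CPM in Y-only neurons (3.48 ± 0.25, edgeR, plate as block, adjusted p = 1.86e-05). Adcyap1 stood at 53.0 and 64.7 CPM against 8.74 and 9.93 CPM (2.65 ± 0.37, 0.00966). These were 2 of 9 peptides tested, where 0.0999% of 11016 genes were higher and 0.0454% lower.

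By cells, 3 and 1 Xist-only neurons held Tac2 on the 2 plates against 0 and 1 Y-only neurons, and 5 and 5 held Adcyap1 against 0 and 1. The Y-only Tac2 holder is the neuron with 5 transcripts whose namesake well on fed plate 2 held 256. Glutamatergic neurons were 9 and 8 of the Xist-only neurons against 1 and 0 of the Y-only ones, and Slc17a6 was higher in Xist-only neurons by 2.20 ± 0.28 (adjusted p = 0.00561). AgRP-like neurons were 59.4 and 15.9% of Xist-only neurons against 50.0 and 53.6% of Y-only ones. The part of these differences in composition in the result was not tested. With fed plate 1 included (13 Xist-only against 95 Y-only neurons), an alternative chosen after seeing the data, Adcyap1 was called (2.17, adjusted p = 0.000257) and Tac2 was not (4.91, 0.9995). The fit on 2 plates has 1 residual degree of freedom, the Tac2 call was lost without the plate block (adjusted p = 0.998) and the Adcyap1 call with DESeq2 (0.9998).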

How the data were processed

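Single cells were profiled with CEL-seq2, which primes on poly(A) and counts unique molecular identifiers. The authors deposited expected counts of transcripts per gene and well, corrected for identifier collisions (4096 possible identifiers) and not normalized or filtered by well. Per the submitters' processing notes, Trim Galore, STAR and the mm10 build were used. The counting program was not given in the sources used here.

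Counts were rounded to whole numbers. A well was kept at 1000 or more nuclear-gene transcripts, spike-ins not counted, if under 30% of its transcripts were mitochondrial. Clustering (scanpy 1.11.5, leidenalg 0.10.2, Python 3.11.15) used 2000 variable genes, 30 components and 10 neighbours at a Leiden resolution of 1.5. It left out the 10 peptides, transmitter genes and sex-linked genes. A cluster was neuronal at 40 or more transcripts per 10000 of 9 neuron markers, each seen in at least 50% of its cells. These limits were set after the data were seen. A cluster was named from the list with the largest share of markers met (in 25% of cells, at 2 times the level elsewhere), if at least 3 were met, no list tied and no other list had more markers among the 10 leading genes. Doublets called by Scrublet stayed in and were left out in an alternative.

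Sums per plate entered edgeR 4.0.16 (R 4.3.3, quasi-likelihood test) with TMM scaling, its filter on low counts and, except for fasted against fed, plate as a block. The p-values were adjusted over every gene tested (Benjamini-Hochberg) and called at a threshold of 0.05. DESeq2 1.42.0 was an alternative. SE is the log2 fold divided by the square root of F. CPM beside a fold are TMM-scaled, and those in the plot of summed levels are of plain totals. Sums of at least 5 neurons entered a holder comparison, on at least 3 plates; the glutamatergic sum of fed plate 1, with 2 neurons, is the exception in the comparison of types. Intervals are exact binomial (Clopper-Pearson) at 95%, and a share of 0 is given with the limit that 3 counts allow. Both cover counting error only. Depth per kept well had a median of 9708.5 transcripts on the fasted plate and 13507, 7750 and 8356 on fed plates 1, 2 and 3.

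The named genes were the 10 peptides, 13 transmitter genes, 4 arcuate peptides, Lepr, called members of lists of 21 receptors and 36 regional factors (1 listed gene is not in the tables), and the 5 highest called genes with at least 20 CPM in holders. One gene that this rule names is not reported here. The members and lists were chosen with earlier results of these data known. Alternatives were another scaling, DESeq2, no low-count filter, each plate left out, no block, stricter wells, no doublets or deep neurons, another resolution, other holding and typing rules and thinning. Those that leave out holders with a richer namesake well, plates with under 5 neurons of a type or AgRP-like neurons under 5 Agrp transcripts, or that add fed plate 1 to the sex comparison, were chosen after seeing the data. The models were also run on counts simulated with the same dispersion for every gene. That setting is unlike peptides carried by few cells per sum, so it does not check the calls for them.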

Additional observations from a re-analysis of the deposited data

Results flagged for a closer look

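The change of Ghrh between the fasted plate and the fed plates ran in opposite directions in AgRP-like neurons (log2 fold 2.10) and in other neurons (-6.95), and that of Trh did too (1.38 and -1.18). Neither difference was tested, and no single one of these 4 folds was called. The AgRP-like values of both genes rest on 1 fasted neuron, with 23 Ghrh and 17 Trh transcripts and 1 Agrp transcript.

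Among the 257 wells left out for few transcripts or a high mitochondrial share, 1 held 5 or more transcripts of Tac2 (16), 1 of Pdyn (5) and 1 of Sst (5). These wells entered no comparison.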

How the results depend on the processing

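The share of neurons with any of the 10 peptides (44.0%) was 92.7% at 1 or more transcripts, 57.8% at 3, 29.2% at 10, 37.8% at 2 or more transcripts and 2 per 10000, and 25.3% after thinning. The share with at least 2 peptides (13.0%) was 75.3, 22.7 and 7.55% at 1, 3 and 10 transcripts and 5.01% after thinning.

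With DESeq2 the counts of genes called were 1159 for AgRP-like against other neurons (edgeR 1894), 361 for GABAergic against glutamatergic (860), 3 for Xist-only against Y-only (16), 198 for fasted against fed AgRP-like neurons (556), 61 for all neurons (25) and 29 for Adcyap1 holders (48). Without the replicate block they were 998 for AgRP-like neurons, 8 for Xist-only neurons, 30 for Gal holders (181), 91 for Pdyn holders (331), 1 for Sst holders (20) and 3 for Adcyap1 holders. Without the low-count filter they were 70 for Xist-only, 402 for all fasted neurons, 162 for fasted other neurons (18), 368 for Gal, 173 for Sst and 137 for Adcyap1 holders. Without doublets and deep neurons they were 282 for Gal, 155 for Pdyn, 13 for Sst and 127 for Adcyap1 holders. At 10 or more transcripts they were 349 for Gal and 148 for Sst holders, and at 2 per 10000 they were 453 and 94. Against remaining neurons that were not AgRP-like they were 343 for Sst and 231 for Adcyap1 holders. With at least 5 neurons of each type, 415 genes were called between types.

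Leaving out each plate gave 1190 to 2110 genes for AgRP-like neurons, 266 to 474 between types, 535 to 955 for fasted AgRP-like neurons, 17 to 985 for all fasted neurons and 98 to 282 for fasted other neurons. It gave 120 to 306 for Gal, 187 to 392 for Pdyn, 0 (without fed plate 2) to 89 for Sst and 64 to 116 for Adcyap1 holders. The cause of these shifts was not tested.

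The folds that changed sign were called neither on all plates nor where their sign differed. The values that follow are log2 folds, and a range is that over the plates left out in turn. For fasted against fed neurons, Gal ran from -0.45 to 0.37 over all neurons and from -0.94 to 0.38 in other neurons, Pdyn from -0.27 to 0.046 and from -0.20 to 0.28, and Tac2 from -0.91 to 0.028 in other neurons. Without doublets and deep neurons, Pdyn was 0.26 over all neurons and 0.30 in other neurons. Ghrh was -1.28 in AgRP-like neurons with 5 or more Agrp transcripts. For GABAergic against glutamatergic neurons, Nts ran from -4.40 to 1.18 and Trh from -0.75 to 7.79. With typing from 2 genes, Nts was 0.12 and Trh 0.10, and Trh was 1.27 with DESeq2 and 0.036 without the low-count filter. For Xist-only against Y-only neurons, Nts was 0.014 with DESeq2 and Pdyn 0.64 without doublets and deep neurons, and with fed plate 1 Ghrh was -0.11 and Sst 0.082.

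In Gal holders, Kiss1 ran from -3.04 to 1.04, Pdyn from -0.30 to 1.32 and Tac2 from -3.33 to 0.95. Tac2 was 0.32 there without the plate block. Tac2 was called lower there without the fasted plate (-3.33). Kiss1 was -1.30 with DESeq2. At 10 or more transcripts Kiss1 was -7.50 and Pdyn -1.06. At 2 per 10000 Kiss1 was -2.76 and Pdyn -1.22. Against remaining neurons that were not AgRP-like, Kiss1 was -0.73 and Pdyn -0.20, and without doublets and deep neurons Pdyn was -0.14. Sst in Pdyn holders was 0.43 without the block and 0.14 against neurons that were not AgRP-like. Nts in Adcyap1 holders was -1.68 with DESeq2 and -0.59 against neurons that were not AgRP-like.

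No paired analysis was possible because the fasted group has 1 plate, for the comparison of feeding states. Depth limits any statement on transcripts below the holding rule.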
